A study of Mus musculus with 12 samples.

Results

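The TGF-beta and BMP signalling genes described here are 44 genes of the 18771 in the deposited expression table, chosen by symbol: ligands, latent binding proteins, antagonists, receptors, SMADs, co-repressors and feedback or target genes. All 44 were found and all 44 passed the filter on low counts. They were divided by the branch in which they are best known, with 23 in the TGF-beta and activin arm, 14 in the BMP arm, 5 that serve both and 2 (Gdf15 and Bmp1) placed in neither.

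RNA was sequenced from cardiac fibroblasts of the mouse left ventricle, isolated 3 days after myocardial infarction, for which the left anterior descending artery had been permanently ligated. The 6 control libraries came from mice of genotype PDGFRa CreER/+;Pfas fl/+ and the 6 Pfas CKO libraries from mice of genotype PDGFRa CreER/+;Pfas fl/fl. All mice thus carried an inducible Cre driven from Pdgfra, which fibroblasts and other mesenchymal cells express, and the controls carried a single floxed allele of Pfas, which encodes an enzyme of de novo purine synthesis. Pfas CKO mice received tamoxifen 7 days and 3 days ahead of the infarction and again 1 day after it. Tamoxifen treatment of the control mice is not stated in the labels, so tamoxifen and genotype cannot be told apart. The ages of the mice are not given either.

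TGF-beta ligands are secreted in a latent form, held in the matrix by latent TGF-beta binding proteins, and once released they signal through a type II and a type I receptor kinase that phosphorylate SMAD2 and SMAD3. BMPs use other receptors and phosphorylate SMAD1 and SMAD5, while activins share SMAD2 and SMAD3 with TGF-beta. SMAD4 is the common partner of both, and SMAD6, SMAD7, SKI, SKIL and TGIF1 dampen the response. In the infarcted heart TGF-beta is best known for turning fibroblasts into matrix-secreting myofibroblasts.

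Library totals ran from 20320133 to 20950074 estimated reads. The targeted transcript, Pfas, averaged 23.3 CPM (SD 0.861, n = 6) in control and 11.2 (SD 3.78, n = 6) in Pfas CKO, where Pfas CKO 2 reached 17.4 CPM and Pfas CKO 4 reached 14.5. The libraries formed near-identical sets, control 1 to 3, control 4 to 6, and Pfas CKO 1, 3, 5 and 6, with Pfas CKO 2 and Pfas CKO 4 standing apart from these. The labels do not say whether libraries came from separate mice, so p-values measure the spread between libraries, which may be technical. The 12 fibroblast markers examined were all detected in every library, and their summed level was 18535 to 21523 CPM in control and 15893 to 17801 in Pfas CKO. Even so, 8 of the 12 were called higher and 4, among them Col1a1, Col1a2 and Pdgfra, lower, beside 33.4% and 35.2% of all genes tested. The 12 macrophage markers summed to 6070 to 6622 CPM in control and 5784 to 7685 in Pfas CKO, so the preparations also held myeloid RNA. In such bulk samples, fewer cells of a type and less RNA per cell cannot be told apart.

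Most of the 44 genes stood higher in Pfas CKO than in control. By edgeR's quasi-likelihood test at a Benjamini-Hochberg adjusted p under 0.05, the rises numbered 29 (65.9%) and the falls 6 (13.6%), and 9 genes did not pass. Among all 13600 genes tested, 33.4% were called higher and 35.2% lower, 68.6% in either direction. The median log2 fold change (Pfas CKO over control) was 0.27 over the 44 genes and -0.02 over all genes tested. A rise of at least 1.5-fold was called for 14 of the 44 (31.8%), against a background of 15.2%, and a fall of that size for 2, against 15.9%. Levels in read counts scaled to a common library size (CPM) were scaled by edgeR's TMM factors, and all directions are relative to that scaling. Scaled by library totals alone, the median of all genes moved to -0.26. Then 18 of the 44 genes were called higher and 10 lower, beside 2775 and 7202 of all 13600 genes tested. With near-identical libraries summed into 2 control and 3 Pfas CKO samples, 15 of the 44 were called higher and 3 lower, beside 2783 and 2877 of 15231 genes.

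In TMM-scaled CPM, no Pfas CKO library overlapped with any control library in 22 of the 44 genes, against 47.1% of all genes tested. Pfas CKO lay above control in 19 of them (background 23.2%) and below it in 3, Fst, Tgfbr2 and Pmepa1 (background 23.9%). For single genes, overlap is given here and below in that unit. In TPM, which carries no TMM factors, Ltbp4, Tgfbr3, Smad3, Bmp4, Acvrl1, Bmpr1a, Smad1, Id2, Smad4 and Bambi did overlap. There Tgfb1, Ltbp1, Tgfbr1, Ski, Snai1 and Scx separated instead, with Pfas CKO below control. The genes that rose most after Gdf15 were Skil, Bmp6, Ltbp4, Acvr1b and Inhba, and those that fell most were Fst and Tgfbr2.

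**Figure D1:**
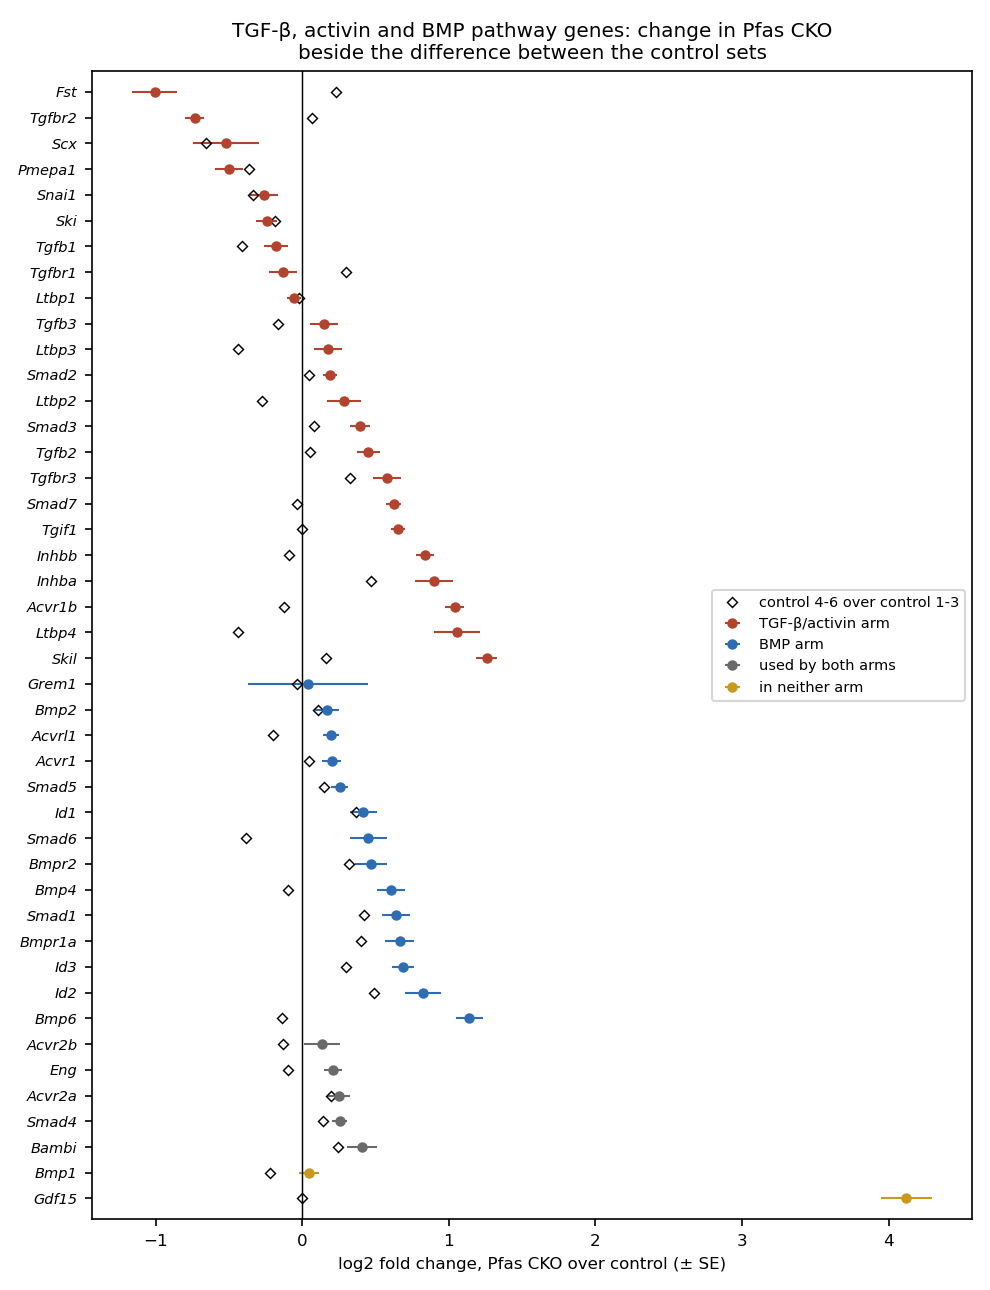
Log2 fold change of Pfas CKO over control for each of the 44 genes (horizontal axis), with bars of 1 SE from edgeR and colours for the arms. Open diamonds give the log2 difference of control 4 to 6 over control 1 to 3. Gdf15 lies at 4.12, and the lowest genes are Fst at -1.01 and Tgfbr2 at -0.73.

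Promoter sequence was available for 30 of the 44 genes, from RefSeq on GRCm38.p6, and the 250 bases before each annotated start were searched on both strands for 4 short motifs. CACGTG, the palindromic E-box, was present for 5 of the 30 genes (16.7%): Tgfb2, Bmp4, Bmp6, Acvr1b and Gdf15, each of which rose. It was present for 6.86% of the 27025 genes in the table and in 6.02% of all windows of that length. Of the 25 genes without it, 16 rose, 3 fell and 6 did not pass. GGCGCC, a GC-rich motif contained in BMP-SMAD binding elements, was present for 8 of the 30 (26.7%; Bmpr1a, Bmpr2, Grem1, Id2, Ltbp4, Ski, Smad5 and Tgfbr1) and for 10.8% of all genes, and of these 8 genes 5 rose, 1 fell and 2 did not pass. GTCTAGA, which contains the SMAD box, and TGACTCA, the AP-1 site, were present for 0 of the 30, against 2.17% and 5.16% of all genes. The windows of the 30 genes were richer in G and C than the table as a whole (median 64.0% against 52.4%), which bears on how often GC-rich letters occur by themselves. A match is a description of the letters only.

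The promoters of a ligand from each arm and of a type I receptor that hold the E-box are shown with those of Inhba, which rose, and Tgfbr2, which fell, neither of which holds any of the 4 motifs. Each is written 5′ to 3′ on the strand of the gene and ends just before the start of the gene, taken from RefSeq or from GENCODE M21 where that lies further upstream, with the E-box in capitals where present.
Tgfb2, chr1:186705990-186706239, minus strand: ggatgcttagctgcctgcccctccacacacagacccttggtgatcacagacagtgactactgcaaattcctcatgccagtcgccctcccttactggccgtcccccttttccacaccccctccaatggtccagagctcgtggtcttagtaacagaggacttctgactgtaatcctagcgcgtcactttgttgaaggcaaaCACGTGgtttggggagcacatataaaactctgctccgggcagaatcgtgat
Bmp4, chr14:46390670-46390919, minus strand: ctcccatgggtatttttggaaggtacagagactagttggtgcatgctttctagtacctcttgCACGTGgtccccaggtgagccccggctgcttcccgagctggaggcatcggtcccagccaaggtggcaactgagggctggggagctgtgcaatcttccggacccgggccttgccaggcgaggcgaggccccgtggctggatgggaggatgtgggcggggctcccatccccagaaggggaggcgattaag
Acvr1b, chr15:101173822-101174066, plus strand: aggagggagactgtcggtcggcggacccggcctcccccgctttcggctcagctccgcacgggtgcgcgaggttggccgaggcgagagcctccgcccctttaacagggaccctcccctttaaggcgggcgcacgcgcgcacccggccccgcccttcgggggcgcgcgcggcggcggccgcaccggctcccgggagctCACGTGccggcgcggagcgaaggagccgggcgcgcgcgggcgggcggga
Inhba, chr13:16011601-16011850, plus strand: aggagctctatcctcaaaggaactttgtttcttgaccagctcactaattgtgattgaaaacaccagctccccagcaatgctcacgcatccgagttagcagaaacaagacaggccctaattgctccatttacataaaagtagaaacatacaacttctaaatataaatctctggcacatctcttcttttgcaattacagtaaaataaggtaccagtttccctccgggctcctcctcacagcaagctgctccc
Tgfbr2, chr9:116175364-116175613, minus strand: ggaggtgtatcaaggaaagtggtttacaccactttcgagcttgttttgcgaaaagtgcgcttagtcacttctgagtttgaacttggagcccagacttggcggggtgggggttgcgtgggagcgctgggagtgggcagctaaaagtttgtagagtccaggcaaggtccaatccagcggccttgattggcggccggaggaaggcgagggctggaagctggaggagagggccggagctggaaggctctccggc
The E-box began 51 bases before the RefSeq start in Tgfb2, 188 in Bmp4 and 54 in Acvr1b. In Bmp6 and Gdf15 it lay 127 and 83 bases before the start of a RefSeq transcript that begins inside the gene as GENCODE M21 draws it, and those windows are not shown.

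Of the TGF-beta and activin ligands, both activin subunits and Tgfb2 rose, while Tgfb1 and Tgfb3 did not pass the test. Inhba (gene ID 16323; GRCm38 chromosome 13, 16011851 to 16031621, plus strand) encodes the activin beta A subunit. Its level lay between 979 and 1481 CPM in control (median 1201) and between 1907 and 3037 in Pfas CKO (median 2163). The groups did not overlap, and Pfas CKO 4 was the highest library. This was a 1.86-fold rise, with a log2 fold change of 0.90 ± 0.13 (SE) and an edgeR adjusted p of 1.78e-05. Control 4 to 6 already stood above control 1 to 3 by 0.47 on the log2 scale. The log2 fold change was 1.16 against control 1 to 3 and 0.67 against control 4 to 6. Inhbb, the activin beta B subunit (gene ID 16324; chromosome 1, 119415465 to 119422248, minus strand), was far less abundant, with 9.96 to 11.6 CPM in control (median 10.9) and 18.0 to 20.8 in Pfas CKO (median 19.4). Its libraries were tight in both groups and did not overlap, and the log2 fold change was 0.84 ± 0.06 (edgeR adjusted p = 7.73e-09).

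Tgfb2, a TGF-beta isoform best known in the heart for its part in valve and cushion development (gene ID 21808; chromosome 1, 186622792 to 186705989, minus strand), stood at 62.5 to 67.8 CPM in control (median 63.8) and 65.4 to 99.2 in Pfas CKO (median 92.4). Pfas CKO 2, at 65.4 CPM, lay within the control range, and the other Pfas CKO libraries lay above it. The log2 fold change was 0.45 ± 0.08 (edgeR adjusted p = 0.000131). It was not called on the log2(TPM + 1) scale, at 0.16 (limma adjusted p = 0.117), or with near-identical libraries summed, at 0.35.

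Tgfb1 (gene ID 21803; chromosome 7, 25687002 to 25705077, plus strand) is the isoform most tied to cardiac fibrosis and is also made by macrophages and platelets. It lay between 227 and 317 CPM in control (median 274) and between 228 and 251 in Pfas CKO (median 244), so the groups overlapped. The log2 fold change of -0.18 ± 0.08 did not pass (edgeR adjusted p = 0.0700). Control 4 to 6 stood below control 1 to 3 by 0.41 on the log2 scale, and the log2 fold change of Pfas CKO was -0.36 against control 1 to 3 (edgeR adjusted p = 2.4e-05) and 0.031 against control 4 to 6 (edgeR adjusted p = 0.577). Without control 4, 5 or 6 the fall of Tgfb1 passed, at -0.23, -0.21 and -0.21. It also passed with library totals, at -0.41, and on the log2(TPM + 1) scale, at -0.45 (limma adjusted p = 0.000518), where the median of all genes was -0.28. Of 12 macrophage markers 7 were called higher and 2 lower, beside 33.4% and 35.2% of all genes tested. In TPM, Adgre1, Cd68, Lyz2 and Fcgr1 lay below all controls in every Pfas CKO library, and C1qb, C1qc, Cd163 and Ptprc above them. Erythrocyte and platelet markers summed to 110.3 to 137 CPM in control and 416 to 524 in Pfas CKO. The part of macrophage, erythrocyte and platelet RNA in the Tgfb1 values was not tested.

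Tgfb3, at 16.2 to 18.6 CPM in control (median 16.9) and 14.9 to 22.1 in Pfas CKO (median 20.5), gave a log2 fold change of 0.15 ± 0.10 (edgeR adjusted p = 0.181). Its 2 low Pfas CKO libraries were Pfas CKO 2 and Pfas CKO 4, and it passed without Pfas CKO 2, at 0.20.

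Among the BMP ligands, Bmp6 and Bmp4 rose and Bmp2 did not pass. Bmp6 (gene ID 12161; chromosome 13, 38345107 to 38500302, plus strand), a BMP known for control of hepatic hepcidin, lay between 19.0 and 22.5 CPM in control (median 20.5) and between 35.1 and 51.0 in Pfas CKO (median 48.7). All Pfas CKO libraries lay above all controls, for a 2.20-fold rise (log2 fold change 1.14 ± 0.09, edgeR adjusted p = 3.47e-08). Bmp4 (gene ID 12159; chromosome 14, 46383520 to 46390669, minus strand), a mesoderm-inducing BMP, lay between 4.42 and 5.12 CPM in control (median 4.86) and between 6.13 and 9.05 in Pfas CKO (median 7.21). The groups again did not overlap, with a log2 fold change of 0.60 ± 0.10 (edgeR adjusted p = 4.68e-05). Bmp2, an osteogenic BMP, had 10.5 to 13.3 CPM in control (median 12.5) and 11.2 to 15.4 in Pfas CKO (median 14.0), with overlapping groups and a log2 fold change of 0.17 (edgeR adjusted p = 0.0791). Without Pfas CKO 2 it was 0.21 and passed.

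Gdf15 is a distant member of the ligand family that signals in the hindbrain through GFRAL and is induced by cell stress in many cell types (gene ID 23886; chromosome 8, 70629393 to 70632456, minus strand). It rose more than any of the other 43 genes. Its level was 13.3 to 15.3 CPM in control (median 13.6) and 157 to 306 in Pfas CKO (median 272), with Pfas CKO 2 and Pfas CKO 4 at 157 and 161 CPM and the others well above them. The rise was 17.4-fold (log2 fold change 4.12 ± 0.18, edgeR adjusted p = 1.92e-11).

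In TPM, the length-corrected unit in which genes can be compared, the order of mean ligand levels in control was Inhba (450.3), Tgfb1 (307), Tgfb2 (29.8), Gdf15 (24.7), Bmp6 (16.6), Tgfb3 (12.3), Bmp2 (8.20), Inhbb (6.13) and Bmp4 (5.74). In Pfas CKO the order was Inhba (691), Gdf15 (354), Tgfb1 (222), Tgfb2 (33.7), Bmp6 (29.9), Tgfb3 (11.2), Inhbb (8.97), Bmp2 (7.59) and Bmp4 (7.09). These are values relative to all transcripts of a library, on a scale without TMM factors.

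The makeup of each ligand family was compared within libraries. Of the summed TPM of Tgfb1, Tgfb2 and Tgfb3, Tgfb1 made up 85.4% to 89.4% in control (87.7 ± 1.71, mean ± SD, n = 6) and 81.2% to 87.1% in Pfas CKO (83.2 ± 2.15, n = 6). The control sets differed, at 89.1% to 89.4% in control 1 to 3 and 85.4% to 86.8% in control 4 to 6, and Pfas CKO 2, at 87.1%, lay above all of control 4 to 6. The difference between the groups of -4.51 percentage points had a two-sided exact permutation p of 0.00866 (adjusted over the 3 shares and ratios compared, 0.00866). Of the summed TPM of Bmp2, Bmp4 and Bmp6, Bmp4 made up 18.8 ± 1.21% in control and 15.9 ± 1.31% in Pfas CKO, a difference of -2.87 percentage points (two-sided exact permutation p = 0.00433, adjusted 0.00649, n = 6 each). Bmp6 made up 51.9% to 56.2% of that sum in control and 62.3% to 69.5% in Pfas CKO, and Bmp2 made up 23.4% to 29.1% and 14.9% to 21.8%. With near-identical libraries averaged, 2 control sets faced 3 Pfas CKO sets, and the p-values were 0.3 for Tgfb1 and 0.1 for Bmp4 by the exact permutation test, where 0.1 is the smallest p that design allows.

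**Figure D2:**
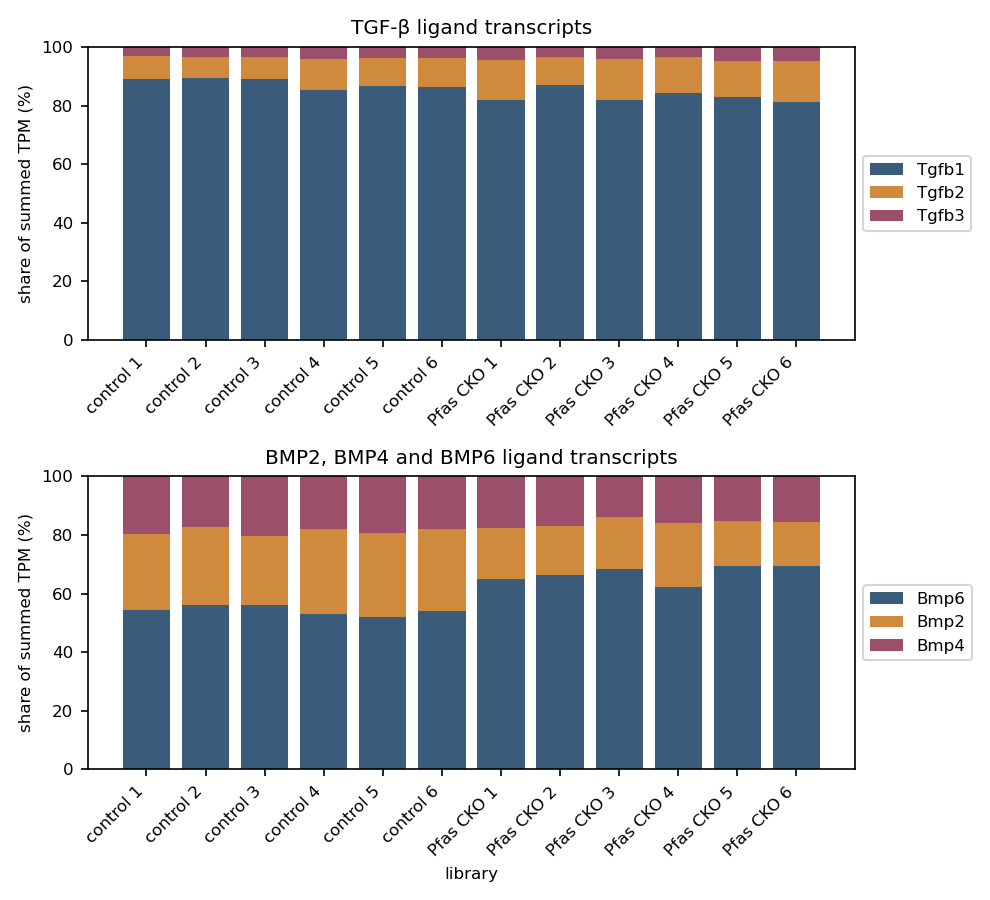
Stacked bars of the share (percent) of each ligand in the summed TPM of its family, one bar per library, for Tgfb1, Tgfb2 and Tgfb3 above and Bmp6, Bmp2 and Bmp4 below. Bmp6 takes 62.3% to 69.5% of the BMP sum in Pfas CKO and 51.9% to 56.2% in control.

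Fst encodes follistatin, a secreted protein that binds activins and keeps them from their receptors, and it fell (gene ID 14313; chromosome 13, 114452290 to 114458951, minus strand). Its level lay between 35.7 and 47.2 CPM in control (median 41.1) and between 15.3 and 30.8 in Pfas CKO (median 17.5). Pfas CKO 2 and Pfas CKO 4, at 26.2 and 30.8 CPM, were closer to control than the other 4 but still below it. The log2 fold change was -1.01 ± 0.15 (edgeR adjusted p = 3.34e-05). The log2 ratio of Inhba to Fst in TPM was 3.56 ± 0.15 in control and 5.52 ± 0.32 in Pfas CKO (mean ± SD, n = 6 each), a difference of 1.96 with a two-sided exact permutation p of 0.00216 (adjusted 0.00649), the smallest that 924 permutations can give. In TPM each gene alone already separated the groups, Inhba upward and Fst downward. The ratio could therefore only give this p, which adds nothing to the results of the single genes. With near-identical libraries averaged, the difference was 1.79 and the exact permutation p was 0.1, the smallest possible there.

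Grem1, gremlin, a secreted inhibitor of BMPs, was scarce. It lay between 0.491 and 0.715 CPM in control and between 0.159 and 1.24 in Pfas CKO. The Pfas CKO libraries fell on both sides of control, where Pfas CKO 2 had 1.20 CPM and Pfas CKO 4 had 1.24 while the other 4 had 0.159 to 0.427, and the log2 fold change of 0.04 ± 0.41 did not pass (edgeR adjusted p = 0.935). Without Pfas CKO 2 and Pfas CKO 4 it was -0.997 (edgeR adjusted p = 0.0072).

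The latent TGF-beta binding proteins did not move as a group. Ltbp4, which tethers latent TGF-beta and takes part in elastic fibre assembly (gene ID 108075; chromosome 7, 27305136 to 27337692, minus strand), lay between 165 and 236 CPM in control (median 198) and between 259 and 487 in Pfas CKO (median 471). The groups did not overlap, although Pfas CKO 2 and Pfas CKO 4, at 307 and 259 CPM, lay well below the other 4 at 464 to 487 CPM. The log2 fold change was 1.06 ± 0.16 (edgeR adjusted p = 2.14e-05). Ltbp2, which binds no latent TGF-beta, rose from a median of 229.7 to 311 CPM, with overlapping ranges of 207 to 257 CPM and 192 to 327 CPM. Its log2 fold change of 0.29 ± 0.12 (edgeR adjusted p = 0.0435) lay close to the threshold, was -0.021 on the log2(TPM + 1) scale and was no longer called without control 2, 4, 5 or 6, or without Pfas CKO 1, 3, 5 or 6. Ltbp1 and Ltbp3, both carriers of latent TGF-beta, gave log2 fold changes of -0.06 (edgeR adjusted p = 0.307) and 0.17 (edgeR adjusted p = 0.121), and Ltbp3 passed without control 3, at 0.23. Ltbp1 was called lower with library totals, at -0.29, and on the log2(TPM + 1) scale, at -0.34 (limma adjusted p = 2.1e-05). Bmp1, a metalloproteinase that trims procollagens and latent binding proteins, gave 0.05 (edgeR adjusted p = 0.549).

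**Figure D3:**
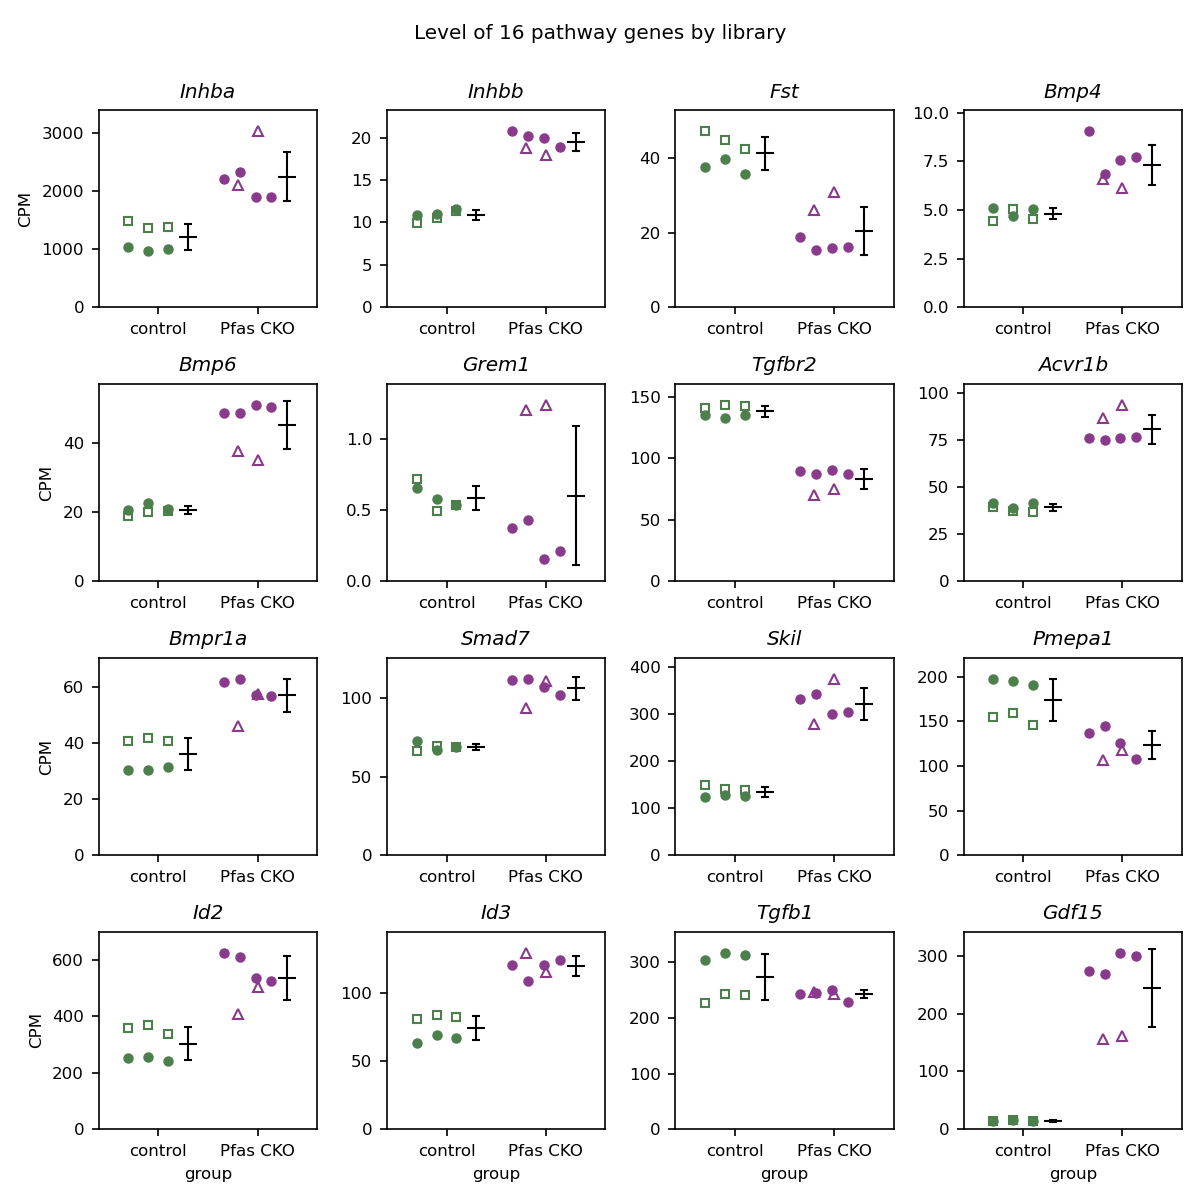
TMM-scaled CPM of 16 genes, one point per library, with the mean and SD of each group beside the points and vertical axes that start at 0. Filled circles in control are control 1 to 3 and open squares control 4 to 6, and open triangles in Pfas CKO are Pfas CKO 2 and 4. Gdf15 spans 157 to 306 CPM in Pfas CKO and 13.3 to 15.3 in control, and Tgfbr2 spans 70.3 to 90.0 and 132 to 143.

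Of the 12 receptors and co-receptors, 9 rose, 1 fell and 2 did not pass, beside 33.4% higher and 35.2% lower among all genes tested. On the log2(TPM + 1) scale the small rises of Acvr1, Acvrl1, Acvr2a and Eng turned negative, and those of Bmpr2 and Bambi were no longer called. Tgfbr2, the type II receptor that binds TGF-beta itself (gene ID 21813; chromosome 9, 116084293 to 116175360, minus strand), was the 1 that fell. Its level lay between 132 and 143 CPM in control (median 138) and between 70.3 and 90.0 in Pfas CKO (median 86.7). All Pfas CKO libraries lay well below all controls, for a fall of 0.73 ± 0.06 on the log2 scale (edgeR adjusted p = 6.69e-08). Tgfbr1, its type I partner kinase, stood at 152 to 194 CPM in control (median 173) and 118 to 177 in Pfas CKO (median 162), with overlapping groups and a log2 fold change of -0.13 (edgeR adjusted p = 0.249). It was 0.037 against control 1 to 3, and -0.28 and called against control 4 to 6, and it was called with library totals, at -0.36, and on the log2(TPM + 1) scale, at -0.41. In TPM the ratio of Tgfbr2 to Tgfbr1 was 0.889 to 1.05 in control (median 0.967) and 0.570 to 0.722 in Pfas CKO (median 0.639), without overlap.

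Acvr1b encodes ALK4, the type I receptor of activins (gene ID 11479; chromosome 15, 101174067 to 101213684, plus strand). It lay between 36.8 and 41.6 CPM in control (median 39.2) and between 75.1 and 93.5 in Pfas CKO (median 76.2), so that the lowest Pfas CKO library stood far above the highest control. The log2 fold change was 1.04 ± 0.06 (edgeR adjusted p = 1.22e-09). The ratio of Acvr1b to Tgfbr1 in TPM was 0.246 to 0.347 in control and 0.548 to 0.956 in Pfas CKO. Tgfbr3, betaglycan, a co-receptor that presents TGF-beta2, stood at 21.9 to 30.9 CPM in control (median 26.6) and 34.2 to 45.5 in Pfas CKO (median 39.5), without overlap, with a log2 fold change of 0.58 ± 0.09 (edgeR adjusted p = 6.16e-05). For Tgfbr3, control 4 to 6 stood above control 1 to 3 by 0.33, and the log2 fold change against each was 0.41 and 0.76.

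All 4 BMP-arm receptors were called higher, beside 33.4% of all genes tested. With near-identical libraries summed, Acvr1, Acvrl1 and Bmpr2 lost the call, at log2 fold changes of 0.11, 0.19 and 0.38. Bmpr1a, the type I receptor ALK3 (gene ID 12166; chromosome 14, 34410734 to 34503341, minus strand), lay between 30.3 and 41.8 CPM in control (median 36.1) and between 46.0 and 62.8 in Pfas CKO (median 57.2). The groups did not overlap, Pfas CKO 2 was the lowest of its group, and the log2 fold change was 0.66 ± 0.10 (edgeR adjusted p = 2.56e-05). For Bmpr1a, control 4 to 6 stood above control 1 to 3 by 0.40, and the log2 fold change against each was 0.47 and 0.89. Bmpr2, the type II receptor of BMPs, stood at 89.9 to 120.4 CPM in control (median 103) and 102 to 165 in Pfas CKO (median 147), with overlapping groups and a log2 fold change of 0.47 (edgeR adjusted p = 0.00119), which was 0.17 and not called on the log2(TPM + 1) scale. Acvr1 (ALK2) and Acvrl1 (ALK1), type I receptors of BMPs, the latter best known in endothelium, both had log2 fold changes of 0.20, with edgeR adjusted p = 0.0121 and 0.00514. Acvr1 lay between 56.4 and 59.98 CPM in control (median 57.1) and between 54.2 and 70.9 in Pfas CKO (median 70.5), with overlap, and Acvrl1 between 55.3 and 68.1 CPM (median 64.5) and between 69.5 and 76.0 (median 72.6), without it. Acvr1 was not called against control 4 to 6 alone, at 0.17, nor Acvrl1 against control 1 to 3 alone, at 0.11. Both small rises turned negative when scaled by library totals, at -0.031 and -0.037, and on the log2(TPM + 1) scale, at -0.093 and -0.086.

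Of the 4 receptors shared by both arms, 3 rose and Acvr2b did not pass, beside 33.4% called higher among all genes tested. With near-identical libraries summed, Eng, Acvr2a and Bambi lost the call. Eng, endoglin, a co-receptor abundant in endothelium, stood at 199 to 218 CPM in control (median 207) and 201 to 263 in Pfas CKO (median 248), with a log2 fold change of 0.21 (edgeR adjusted p = 0.00582) that became -0.022 with library totals. Acvr2a, an activin and BMP type II receptor, had 15.3 to 21.2 CPM in control and 19.0 to 24.5 in Pfas CKO and gave 0.25 (edgeR adjusted p = 0.0139) and -0.025 on the log2(TPM + 1) scale, and its relative Acvr2b gave 0.14 (edgeR adjusted p = 0.332). Neither Eng against control 1 to 3 alone, at 0.17, nor Acvr2a against control 4 to 6 alone, at 0.14, was called. Bambi, a kinase-less pseudoreceptor that inhibits signalling, had 3.52 to 5.35 CPM in control (median 4.83) and 5.38 to 6.92 in Pfas CKO (median 6.28), where the groups nearly touched. Its log2 fold change was 0.41 ± 0.10 (edgeR adjusted p = 0.00271), which was 0.12 on the log2(TPM + 1) scale.

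Most endothelial markers also rose, as did markers of several other cell types. Of 12 endothelial markers, 10 were called higher (33.4% of all genes), among them Pecam1 and Cdh5, and 2, Kdr and Vwf, lower. None was at 0 in any library. Higher calls among tested markers were 7 of 7 for cardiomyocytes, 6 of 6 for erythrocytes and platelets and 8 of 12 for fibroblasts. They were 7 of 12 for macrophages, 5 of 8 for pericytes or smooth muscle, 2 of 3 for neutrophils and 2 of 4 each for mesothelium and lymphocytes. The summed level of the 12 endothelial markers was 860 to 912 CPM in control and 974 to 1212 in Pfas CKO. The part of endothelial RNA in the values of Eng, Acvrl1, Smad6, Id1, Id2 and Id3 was not tested.

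In control the mean TPM of the receptors ran from Eng (145) through Tgfbr1 (72.5), Tgfbr2 (69.8), Acvr1 (49.2), Acvrl1 (42.3), Bmpr2 (23.1), Acvr1b (21.3), Bmpr1a (15.4), Tgfbr3 (10.4), Acvr2a (8.04) and Bambi (5.54) to Acvr2b (0.938). Tgfbr1 and Tgfbr2 did not differ beyond their spread in control. In Pfas CKO Tgfbr1 stood at 54.5 TPM and Acvr1b at 35.8, beside 34.5 for Tgfbr2, and Eng at 138, so that Acvr1b and Tgfbr2 no longer stood far apart.

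**Figure D4:**
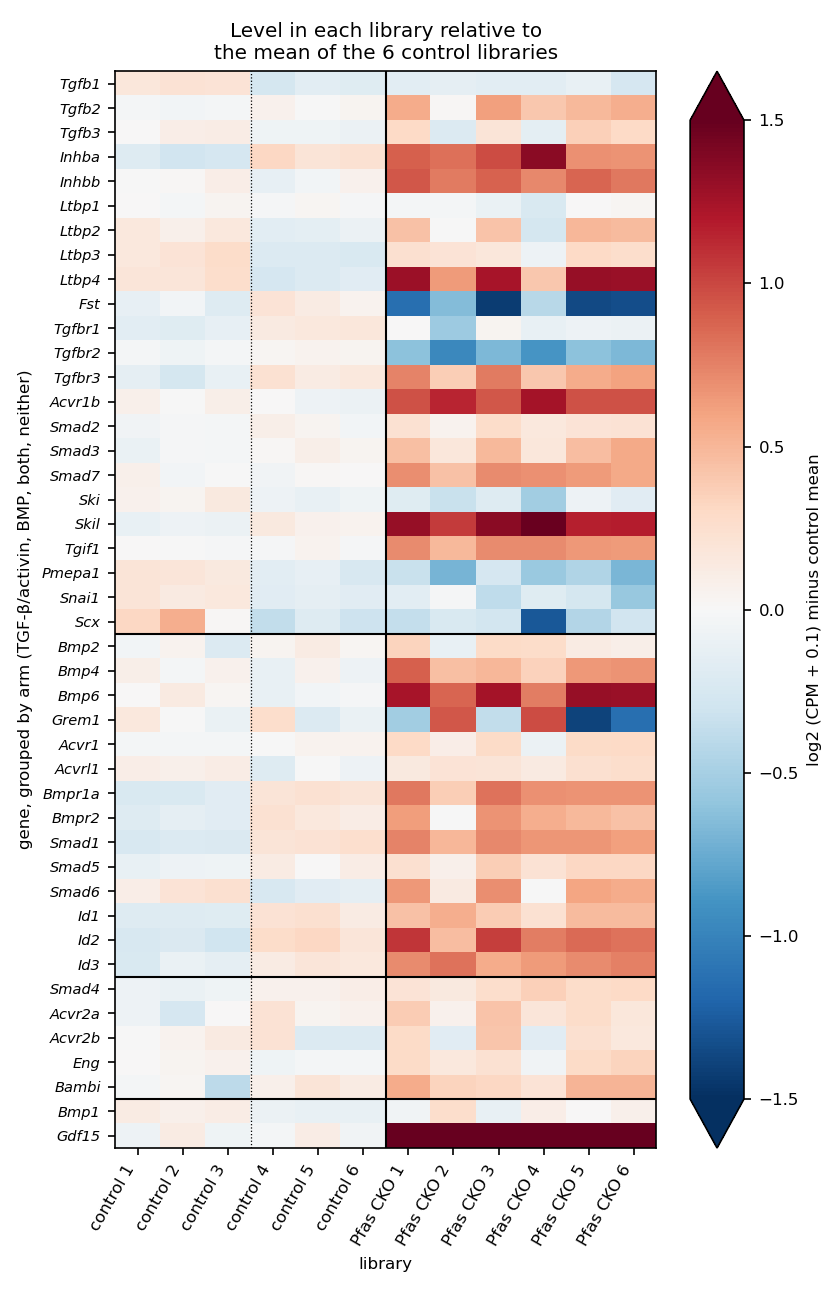
Log2(CPM + 0.1) of each gene in each library minus the mean over the 6 control libraries, red above it and blue below, with libraries in columns and genes in rows grouped by arm, and colours that stop at 1.5 in either direction. Pfas CKO 2 and Pfas CKO 4 lie nearer to control than the other 4 Pfas CKO libraries in rows such as Ltbp4 and Fst.

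All 7 SMADs were called higher, 2 of them by at least 1.5-fold, beside 33.4% and 15.2% of all genes tested. On the log2(TPM + 1) scale Smad2, Smad4 and Smad5 turned negative, and Smad3 and Smad6 were no longer called, at 0.10 and 0.15. With near-identical libraries summed, Smad2, Smad3, Smad4, Smad5 and Smad6 lost the call, and Smad1 and Smad7 kept it. Smad7, the inhibitory SMAD that is induced by TGF-beta and blocks its receptor, lay between 66.6 and 72.4 CPM in control (median 68.8) and between 93.7 and 112 in Pfas CKO (median 109). The groups were well apart, with a log2 fold change of 0.63 ± 0.05 (edgeR adjusted p = 3.97e-08). Smad1, a receptor-regulated SMAD of the BMP arm (gene ID 17125; chromosome 8, 79338395 to 79399518, minus strand), lay between 15.0 and 21.0 CPM in control (median 17.8) and between 25.1 and 29.8 in Pfas CKO (median 28.0). It too did not overlap, and its log2 fold change was 0.64 ± 0.09 (edgeR adjusted p = 2.21e-05). For Smad1, control 4 to 6 stood above control 1 to 3 by 0.42, and the log2 fold change against each was 0.43 and 0.88.

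Smad2 and Smad3 are the receptor-regulated SMADs of the TGF-beta arm. Smad3 stood at 34.3 to 38.7 CPM in control (median 36.7) and 41.1 to 54.4 in Pfas CKO (median 50.3), without overlap (log2 fold change 0.39 ± 0.07, edgeR adjusted p = 0.00015). Smad2 stood at 66.1 to 73.0 CPM in control (median 67.5) and 70.8 to 83.1 in Pfas CKO (median 79.3), with overlapping groups and a log2 fold change of 0.19 (edgeR adjusted p = 0.00243) that became -0.043 with library totals.

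Smad4, the common partner, had 86.3 to 99.2 CPM in control (median 92.5) and 102 to 118 in Pfas CKO (median 111), without overlap, and a log2 fold change of 0.26 (edgeR adjusted p = 0.000471). Smad5, the other BMP receptor-regulated SMAD of the list, had 46.1 to 54.2 CPM in control (median 49.0) and 52.6 to 64.6 in Pfas CKO (median 60.2), with overlap (log2 fold change 0.26, edgeR adjusted p = 0.00132). On the log2(TPM + 1) scale they became -0.016 and -0.024. Smad6, the inhibitory SMAD of the BMP arm, rose with a log2 fold change of 0.45 ± 0.13 (edgeR adjusted p = 0.00498), with 17.2 to 24.1 CPM in control (median 20.2) and 20.3 to 33.1 in Pfas CKO (median 30.4), where Pfas CKO 2 and Pfas CKO 4 lay within the control range. Against control 1 to 3 alone it was 0.28 and not called.

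The nuclear co-repressors of the SMADs split. Skil (gene ID 20482; chromosome 3, 31095058 to 31122577, plus strand), which encodes SnoN and is itself a TGF-beta target, lay between 125 and 149 CPM in control (median 133) and between 278 and 375 in Pfas CKO (median 318). The lowest Pfas CKO library was far above the highest control, and the log2 fold change was 1.26 ± 0.07 (2.39-fold, edgeR adjusted p = 6.02e-10). Tgif1, a homeodomain co-repressor of SMAD2 and SMAD3 (gene ID 21815; chromosome 17, 70844205 to 70853546, minus strand), lay between 185 and 194 CPM in control (median 185) and between 263 and 307 in Pfas CKO (median 299), with a log2 fold change of 0.65 ± 0.05 (edgeR adjusted p = 7.2e-09). Ski, the founding member of the SnoN family, fell slightly, with 92.9 to 111 CPM in control (median 99.9) and 70.0 to 95.0 in Pfas CKO (median 88.2), with overlapping groups and a log2 fold change of -0.24 (edgeR adjusted p = 0.00667), which was -0.16 and not called against control 4 to 6 alone.

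Of the genes listed as feedback or targets, the 3 of the TGF-beta arm fell and the 3 of the BMP arm rose, beside 35.2% lower and 33.4% higher among all genes tested. This split holds for these listed genes only. Skil and Smad7, also induced by TGF-beta but listed as co-repressor and SMAD, rose. Pmepa1, a TGF-beta-induced feedback gene that sequesters SMAD2 and SMAD3 (gene ID 65112; chromosome 2, 173224458 to 173276533, minus strand), lay between 146 and 198 CPM in control (median 175) and between 107 and 145 in Pfas CKO (median 122). The groups met without overlapping, and the log2 fold change was -0.50 ± 0.10 (edgeR adjusted p = 0.00027). Snai1, a transcriptional repressor of epithelial genes, fell with a log2 fold change of -0.26 (edgeR adjusted p = 0.0273) and overlapping groups of 15.7 to 20.2 CPM and 11.9 to 17.5 CPM. Scx, scleraxis, a transcription factor of tendon and fibroblast matrix genes, was barely detected, at 0.893 to 1.77 CPM in control and 0.430 to 0.992 in Pfas CKO (log2 fold change -0.52 ± 0.22, edgeR adjusted p = 0.0495).

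All 3 genes already differed between the control sets. Their log2 level in control 4 to 6 minus control 1 to 3 was -0.36 for Pmepa1, -0.34 for Snai1 and -0.66 for Scx. Against control 4 to 6 alone, Snai1 and Scx did not pass, at -0.095 (edgeR adjusted p = 0.444) and -0.17 (edgeR adjusted p = 0.561), whereas Pmepa1 did, at -0.32 (edgeR adjusted p = 0.0108). The call of Snai1 was also lost without control 1, 2 or 3 or without Pfas CKO 3 or 6, and that of Scx without any of control 1, 2 and 3 and Pfas CKO 1, 3, 4, 5 and 6. Scx was also not called with RLE scaling, with DESeq2 or without the filter on low counts.

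Id1, Id2 and Id3 encode helix-loop-helix inhibitors of differentiation and are classical BMP targets. Id2 (gene ID 15902; chromosome 12, 25093799 to 25097140, minus strand) lay between 242 and 369 CPM in control (median 297) and between 409.8 and 626 in Pfas CKO (median 530.2), without overlap (log2 fold change 0.82 ± 0.12, edgeR adjusted p = 2.65e-05). Id3 (gene ID 15903; chromosome 4, 136143497 to 136145755, plus strand) lay between 62.9 and 83.7 CPM in control (median 74.7) and between 109 and 129 in Pfas CKO (median 120.5), also without overlap (log2 fold change 0.69 ± 0.07, edgeR adjusted p = 8.61e-07). Id1 rose less, with 19.5 to 26.5 CPM in control (median 22.1) and 26.4 to 32.8 in Pfas CKO (median 30.8), where the ranges just overlapped (log2 fold change 0.42 ± 0.09, edgeR adjusted p = 0.000663), and the call was lost with library totals, at 0.19, and on the log2(TPM + 1) scale, at 0.15. The control sets differed in all 3 Id genes, with control 4 to 6 above control 1 to 3 by 0.37 (Id1), 0.49 (Id2) and 0.30 (Id3) on the log2 scale.

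By arm, rises numbered 12 (52.2%) and falls 6 (26.1%) among the 23 TGF-beta and activin genes, where 5 did not pass and the median log2 fold change was 0.19, beside 33.4% higher and 35.2% lower among all genes tested. In the BMP arm 12 of 14 rose (85.7%), none fell and Bmp2 and Grem1 did not pass, for a median of 0.46. The 5 genes that serve both arms gave 4 rises and a median of 0.25. The median over all genes tested was -0.02. Median values per library, relative to the control mean, ran from 0.41 to 0.64 in the BMP arm over the Pfas CKO libraries. In the TGF-beta and activin arm they ran from -0.07 in Pfas CKO 4 and 0.02 in Pfas CKO 2 to between 0.28 and 0.36 in the others.

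The size of that contrast depended on the controls used. The TGF-beta and activin median minus the BMP median was -0.27 against all 6 controls, -0.43 against control 1 to 3 (medians 0.16 and 0.59) and -0.025 against control 4 to 6 (medians 0.34 and 0.37). The background of called genes was 33.1% higher and 33.3% lower against control 1 to 3, and 31% and 32.3% against control 4 to 6. These comparisons share the Pfas CKO libraries. In the column headers, control 4 to 6 and the Pfas CKO libraries follow 1 naming style, and control 1 to 3 follow another. What set control 1 to 3 apart is not stated. The control sets, of the same genotype, themselves differed: control 4 to 6 against control 1 to 3 called 14 of the 44 genes higher and 14 lower, with 45.5% of 13727 genes called, 23.5% higher and 22% lower. Of the BMP arm 7 were higher and 2 lower, and of the TGF-beta and activin arm 5 were higher and 10 lower, with medians of 0.13 and -0.04. The log2 fold change of Pfas CKO over control was larger in size than this difference between control sets in 36 of the 44 genes. That share was not worked out over all genes, so it is no result particular to the 44. Over all genes, called folds of at least 1.5 numbered 82 higher and 309 lower between control sets. For Pfas CKO over control they numbered 2063 and 2167. Against both control sets taken singly, 23 of the 44 were called higher (background 26%) and 3 lower (background 26.4%).

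**Figure D5:**
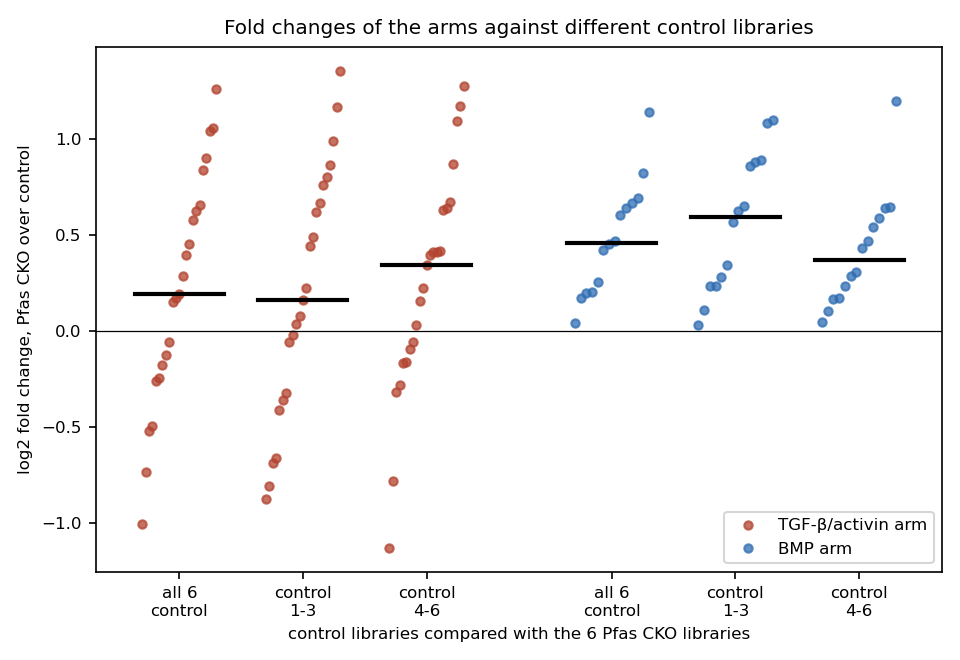
Log2 fold changes of the genes of each arm in Pfas CKO against all 6 controls, against control 1 to 3 and against control 4 to 6, one point per gene with a black bar at the median. The BMP median is 0.59 against control 1 to 3 and 0.37 against control 4 to 6, and the TGF-beta and activin median is 0.16 and 0.34.

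Of the 44 genes, 18 were called in the same direction in each of the 25 alternative fits that tested them, against a background of 36.6%, with 15 higher (background 16.9%) and 3 lower (background 19.7%), of which 11 belonged to the TGF-beta and activin arm, 6 to the BMP arm and 1 (Gdf15) to neither. The 3 lower genes were Fst, Tgfbr2 and Pmepa1.

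Beyond the 44, 107 other genes of the pathway were listed, and 84 were tested. Rises numbered 40 and falls 17, while 27 did not pass, beside 33.4% higher and 35.2% lower among all genes tested, and the median log2 fold change of these genes was 0.17. Among genes that release TGF-beta from its latent complex, Itgav, the integrin alpha V chain, rose from a mean of 280.3 to 699.8 CPM (log2 fold change 1.32) and Itgb8, which pairs with it, rose from 1.08 to 4.25 CPM (log2 fold change 1.97). Cilp, a matrix protein that binds TGF-beta1, rose from a mean of 41.9 to 340.0 CPM (log2 fold change 3.02, edgeR adjusted p = 5.04e-07), where Pfas CKO 2 and Pfas CKO 4 had 141 and 117 CPM and the other 4 had 437 to 464. The partners of the kinase TAK1 moved in opposite directions, with Tab2 at a mean of 126 CPM in control and 254 in Pfas CKO (log2 fold change 1.01) and Tab1 at 17.5 and 6.80 CPM (log2 fold change -1.36). Cd109, a membrane protein that binds TGF-beta, fell from a mean of 127 to 50.5 CPM (log2 fold change -1.33). Among 19 other target genes, rises numbered 10 and falls 4, 5 genes failed the test, and their median was 0.24 on the log2 scale. Cilp is on this list of target genes and was among those that rose. Of the falling ones, Ccn1 and Tgfbi, also matrix genes, fell by 0.80 and 0.75 on the log2 scale, from means of 349 to 201 CPM and 328 to 195 CPM. These 8 genes had the largest called folds in each direction among those with a mean of at least 2 CPM.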

How the data were processed

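RNA was measured by RNA-seq in 6 control and 6 Pfas CKO libraries, each from 1 µg of total RNA with oligo(dT) enrichment, per the labels' protocols. The deposited table gives estimated counts (expected reads of each gene, often fractional and not normalized by the authors), TPM scaled per library by the authors, and FPKM, per the file headers. The FPKM columns (12 of libraries and 1 mean) were left aside. The submitters' processing notes list Bowtie2, RSEM and DESeq2 for 9 libraries, giving neither role nor version, and list no tool for control 1 to 3. The build is GRCm38. The sources used here give no strand setting or filter, and overlapping and antisense genes cannot be told apart. Values were blank in at least 1 control library for 1067 genes, which were left out, leaving 17704.

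The rounded estimated counts went into edgeR 4.0.16 (R 4.3.3) with TMM scaling, filterByExpr and glmQLFTest, fitting genotype alone. P-values were adjusted over all 13600 tested genes by Benjamini-Hochberg, and the threshold was 0.05. The test was checked on simulated data, with 200 of 13528 genes changed by 1.5-fold, 2-fold or 4-fold. It recovered 100% of each, and 6.98% of its calls were unchanged genes. Simulated libraries were independent and shared a single dispersion. The check therefore does not cover near-identical libraries or changes in most genes. Standard errors were worked out from each log2 fold change and F statistic. Ligand shares were tested by exact permutation over libraries. Each library was compared with the others by a mean chi-square per gene over genes averaging 20 or more counts: 1.68 to 5.22 within a near-identical set, 17.55 to 39.88 between sets of a group and 168.9 to 253.2 between groups.

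Every one of the 44 genes is accounted for; those called with a fold of at least 1.5, and the ligands, receptors and SMADs, are given with values, and of the other pathway genes the 4 largest called folds in each direction with a mean of at least 2 CPM are named. Members and lists were chosen with earlier results of these data known. Alternatives were RLE scaling, library totals, DESeq2 1.42.0, limma 3.58.1 on log2(TPM + 1) and log2(TPM + 0.1), no filter, a mean of at least 5 CPM, a replicate block, each library or set left out, Pfas CKO 2 and 4 left out, near-identical libraries summed, and a threshold of 0.01. The alternatives for the comparison of the control sets were chosen after seeing the data. Promoter windows are from RefSeq and gene positions from GENCODE M21 on GRCm38.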

Additional observations from a re-analysis of the deposited data

Results flagged for a closer look

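Among 94 sets of 6 values (each gene, and each ligand share or ratio, in each group), 6 had a library that stood far from the rest of its group, with a gap to the nearest library that took up most of the group's range. Chance alone flags about 1 in 20 such sets, and 6 of 94 is near that share. Tgfb1 in Pfas CKO 6 stood at 228 CPM, below the next at 243 CPM. Tgfbr1 in Pfas CKO 2 stood at 118 CPM, below 159 CPM in the next library. Tgif1 in control 5 stood at 194 CPM, above 188 CPM in the next, and in Pfas CKO 2 at 263 CPM, below 290.4 CPM. Scx in Pfas CKO 4 stood at 0.430 CPM, below 0.848 CPM, on estimated counts of 8 to 19 in the Pfas CKO group. Bmpr1a in Pfas CKO 2 stood at 46.0 CPM, below 56.8 CPM. Pfas CKO 2 was the library concerned in 3 of the 6 and Pfas CKO 4 in 1.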

How the results depend on the processing

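Of 1093 results for single genes under the 25 alternatives, 951 kept their direction and side of the threshold, 76 lost the call, 21 gained it and 45 changed direction. With library totals 18 genes were called higher and 10 lower, with 7 BMP-arm genes higher and arm medians of -0.043 (TGF-beta and activin) and 0.23 (BMP). Of all 13600 genes tested, 2775 were called higher and 7202 lower. Reversed log2 fold changes there were Tgfb3 -0.084, Ltbp3 -0.061, Smad2 -0.043, Bmp2 -0.062, Grem1 -0.19, Acvr1 -0.031, Acvrl1 -0.037, Acvr2b -0.096, Eng -0.022 and Bmp1 -0.19. On log2(TPM + 1), 15 were called higher and 10 lower, with 6 BMP-arm genes higher and medians of -0.091 and 0.17. Of all 12426 genes tested there, 2279 were called higher and 7280 lower. Reversed were Tgfb3 -0.14, Ltbp2 -0.021, Ltbp3 -0.11, Smad2 -0.091, Bmp2 -0.11, Acvr1 -0.093, Acvrl1 -0.086, Smad5 -0.024, Smad4 -0.016, Acvr2a -0.025, Eng -0.078 and Bmp1 -0.28. On log2(TPM + 0.1) the counts were again 15, 10 and 6, beside 2271 higher and 7263 lower of all 12426 genes, with medians of -0.096 and 0.17. The same genes gave -0.15, -0.022, -0.11, -0.096, -0.12, -0.095, -0.088, -0.025, -0.017, -0.028, -0.079 and -0.28. These 3 alternatives use no TMM factors, and library totals moved the median of all genes to -0.26.

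Against control 1 to 3 alone, Ltbp3 was -0.022, Tgfbr1 0.037 and Bmp1 -0.050, with a BMP median of 0.59 and an arm difference of -0.43. Against control 4 to 6 alone Tgfb1 was 0.031, with a BMP median of 0.37 and a difference of -0.025. Without Pfas CKO 2 and 4, Grem1 was -0.997 and called lower, the 1 such BMP-arm gene, Bmp1 was -0.035 and the BMP median 0.57. With near-identical libraries summed, 15 genes were higher and 3 lower, with 6 BMP-arm genes higher and 3 TGF-beta and activin genes lower, on 2 against 3 samples. Averaged, the ligand share differences were -3.29 and -2.62 percentage points and the log2 ratio difference 1.79, and a design of that size cannot pass. Leaving out 1 library gave 28 to 31 higher and 4 to 7 lower, 11 to 13 and 4 to 7 in the TGF-beta and activin arm, 12 to 13 higher in the BMP arm, medians of 0.18 to 0.23 and 0.43 to 0.52, and a difference of -0.31 to -0.24. Of the 13670 to 13715 genes tested in those fits, 4388 to 4535 were called higher and 4575 to 5042 lower. Grem1 ranged from -0.30 to 0.24 and Bmp1 from -0.010 to 0.082, where leaving out Pfas CKO 2 turned both, and Pfas CKO 4 or control 5 (-0.0062) turned Grem1. With the replicate number as a block, 29 and 6 genes were called, beside 4529 and 4755 of all 13600, and Grem1 was -0.057. Deviations of same-numbered libraries correlated between -0.04 and 0.17, so the numbers were not taken as pairs. The cause of each change was not tested.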
